A study of Mus musculus with 2 samples.

Results

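Endothelial cells of the mouse aorta were examined for 10 genes that encode proteins of their cell-cell junctions: Cdh5, Pecam1, Esam, F11r, Jam2, Jam3, Cldn5, Ocln, Tjp1 and Cgn. They were chosen by name, as the rows of the deposited matrices with these symbols, and make up 10 of 32285 genes. Single-cell RNA sequencing on the 10x Genomics platform was done in 1 library per group. Both groups were ApoE-deficient mice (ApoE-/-) on the C57BL/6 background that were fed a Western diet, which leads to atherosclerosis in such mice. In the EC-iCD45KO group, CD45, the product of Ptprc, was in addition deleted in endothelial cells by a system induced with tamoxifen. The group labelled WT is wild type for CD45 only. The driver of the deletion, the ages, the number of aortas pooled and whether WT mice received tamoxifen are not given in the sources used here. Digested aortic cells were bound to beads that recognise CD31, which is the product of Pecam1, so 1 of the 10 genes encodes the protein by which cells were enriched. With 1 library per group there is no replicate error and no test between groups. Every interval below is a 95% interval that covers counting error only, and a difference between the libraries is a difference between these 2 libraries.

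Endothelial cells adhere to each other through adherens junctions, whose transmembrane protein VE-cadherin (Cdh5) binds catenins, and through tight junctions, whose strands contain claudin-5 (Cldn5) and occludin (Ocln). Immunoglobulin-type adhesion proteins sit beside them: PECAM-1, ESAM and the junctional adhesion molecules JAM-A (F11r), JAM-B (Jam2) and JAM-C (Jam3). On the cytoplasmic side ZO-1 (Tjp1) and cingulin (Cgn) connect the membrane proteins to actin. Together these proteins set the permeability of the vessel and the passage of leukocytes, and VE-cadherin and PECAM-1 are widely used as endothelial markers whose loss is followed in endothelial-to-mesenchymal transition, the process that the series' design text sets out to study.

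The WT library held 39849 cell barcodes and 92058043 UMIs (unique molecular identifiers, which count captured RNA molecules), and the EC-iCD45KO library 30278 barcodes and 88967918 UMIs. Both libraries contained 340 of the same barcodes, of which 32 lay in endothelial cells of the WT library and 60 in those of the other, and leaving these out moved no member past the fold used below. Cells were clustered without the 10 genes, and clusters were called "EC-like" and so on from marker lists. EC-like cells numbered 3325 in the WT library (9.35% of the cells kept) and 4190 in the EC-iCD45KO library (16.1%), with all 17 endothelial markers at 5 CPM (a gene's UMIs per 1000000 UMIs of the same cells) or more in both. Lymphatic EC-like cells numbered 228 and 210. The targeted gene Ptprc was read at 277 CPM in WT and 118 CPM in EC-iCD45KO EC-like cells, and it was also lower in the EC-iCD45KO library in SMC-like cells (163 and 85.6 CPM) and fibroblast-like cells (348 and 137 CPM). EC-like cells carried RNA of other cell types to unequal extents: the summed B cell markers stood at 1055 CPM in the WT library and 95.1 CPM in the other, T/NK markers at 422 and 70.4, and macrophage markers at 3770 and 6234 CPM, with all 10 macrophage markers at 5 CPM or more in both. SMC markers summed to 740 and 801 CPM, and fibroblast markers to 751 and 644 CPM. The part of this RNA in the differences below was not tested.

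Across cell classes, 3 of the 10 genes had an EC-like level at least 4-fold above every named non-endothelial class in both libraries: Cdh5, Cldn5 and Esam. Of all 10956 genes at a mean of at least 5 CPM in EC-like cells, 0.995% passed the same rule. Cdh5 stood at 9.10 times the next class, Schwann-like cells, in WT (interval 4.41 to 22.7) and at 9.01 times the next class, erythroid-like cells, in EC-iCD45KO (5.83 to 14.8). Cldn5 exceeded its next class by 16.7 times in WT (12.5 to 22.8) and by 11.3 times in EC-iCD45KO (5.96 to 24.8). Esam exceeded its own by 9.06 times (4.59 to 21.0) and 7.43 times (4.95 to 11.7). These folds concern named classes. An unnamed cluster of 223 WT and 212 EC-iCD45KO cells, whose leading genes included Notch3 and Higd1b of the pericyte list, held Esam at 229 and 209 CPM, against 417 and 503 CPM in EC-like cells. It held Cldn5 at 82.5 and 49.3 CPM, against 283 and 300 CPM, and Cdh5 at 93.2 and 44.6 CPM, against 366 and 530 CPM. This cluster scored 4.80 on the pericyte list and 4.58 on the SMC list, too close for it to be named. Had this cluster been counted as a class, none of the 3 genes would have kept a 4-fold margin in WT.

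**Figure D1:**
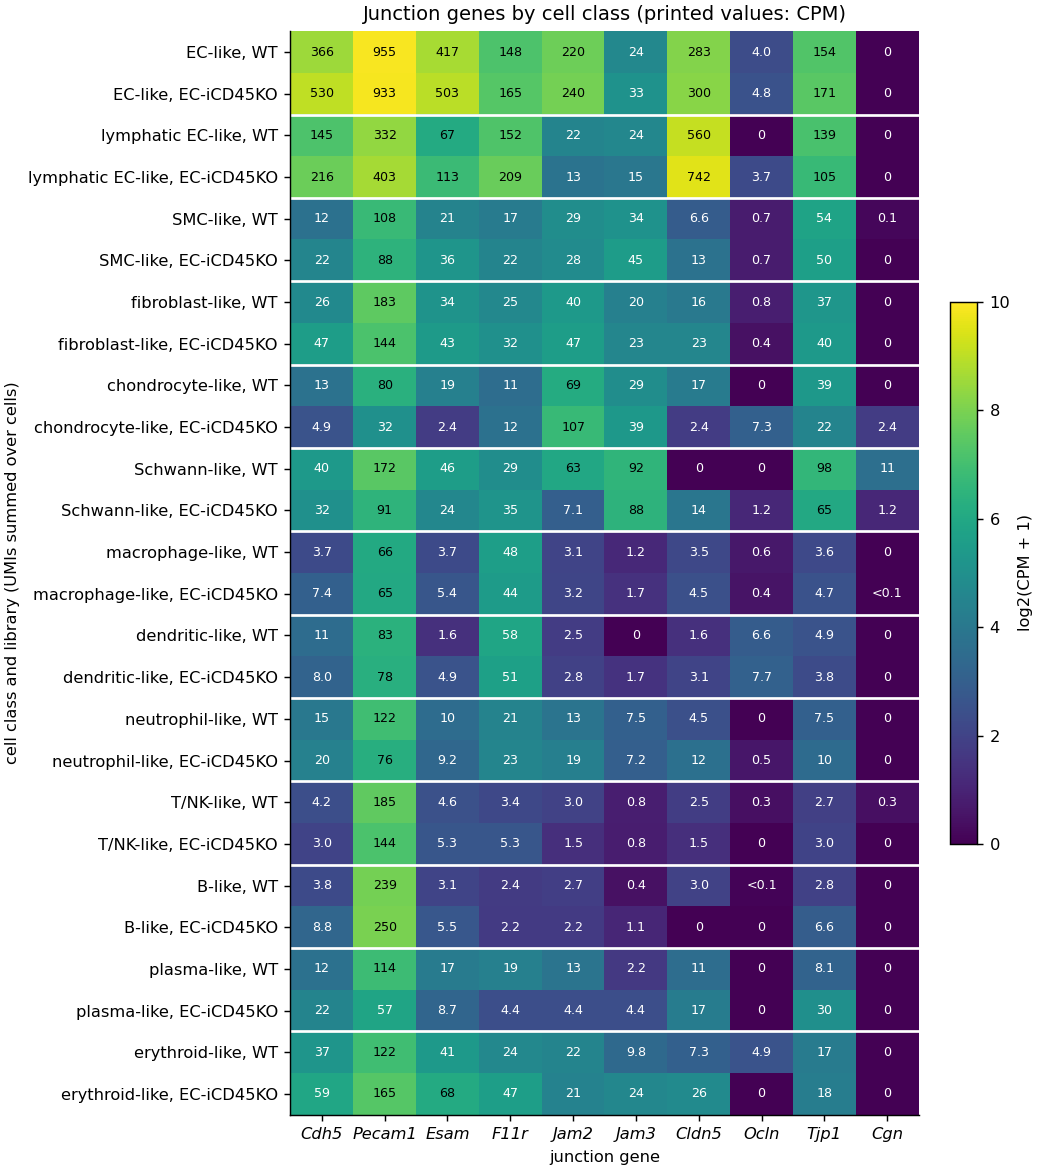
Each cell gives the CPM of a junction gene (columns) in the summed UMIs of a cell class in 1 library (rows), coloured by log2(CPM + 1). The Cdh5, Esam and Cldn5 columns are brighter in the EC-like rows than in every named non-endothelial class, whereas Pecam1 is at 144 CPM or more in the B-like and T/NK-like rows.

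Pecam1, by contrast, was shared with B-like and T/NK-like cells, and leukocytes use PECAM-1 when they cross the endothelium. It stood at 239 CPM in WT and 250 CPM in EC-iCD45KO B-like cells, and at 185 and 144 CPM in T/NK-like cells, so EC-like cells exceeded B-like cells by 3.99 times in WT (3.83 to 4.16) and 3.73 times in EC-iCD45KO (3.27 to 4.28). Fibroblast-like cells, at 183 and 144 CPM of Pecam1, lay in the same range as T/NK-like cells. Macrophage-like (66.3 and 64.9 CPM) and dendritic-like cells (83.2 and 77.6 CPM) lay below SMC-like cells (108 and 87.6 CPM). Neutrophil-like cells held 122 and 75.9 CPM, and plasma-like cells 114 and 56.6 CPM. F11r came next to EC-like cells in dendritic-like cells, at 57.6 and 50.7 CPM, and macrophage-like cells held 47.9 and 43.7 CPM, far over the 3.43 and 5.33 CPM of T/NK-like cells. Jam2 was next highest in chondrocyte-like cells, at 69.3 and 107 CPM. With a 2-fold margin in place of 4-fold, 6 of the 10 genes passed, against 2.79% of all genes tested.

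The remaining genes were less particular to EC-like cells or lower in them than elsewhere. Jam3 was higher in Schwann-like cells (92.0 and 88.5 CPM) than in EC-like cells (24.3 and 33.3 CPM), and it was also higher in SMC-like cells (33.6 and 45.3 CPM). Tjp1, the broadly used ZO-1, was 1.58 times the Schwann-like level in WT (0.982 to 2.72) and 2.64 times in EC-iCD45KO (2.02 to 3.51), and SMC-like cells held 54.3 and 49.5 CPM. Ocln in EC-like cells (4.01 and 4.80 CPM) lay below dendritic-like cells (6.59 and 7.69 CPM), but the intervals of both ratios include equality. Cgn gave 0 UMIs in EC-like cells of either library. A count of 0 allows up to 0.388 CPM in WT and 0.294 CPM in EC-iCD45KO (3 UMIs of the total), and the highest level in any named class, 11.5 CPM in WT Schwann-like cells, rests on 2 UMIs. UMIs of Cdh5 were also found in classes not known to express it. B-like cells, thinned to 1000 UMIs each, showed one in 0.260% of WT and 0.645% of EC-iCD45KO cells at median depths of 2007 and 2552.5 UMIs, against 26.1% and 33.5% of EC-like cells at median depths of 1490 and 1288 UMIs. The shares were higher in SMC-like cells, at 2.62% and 4.16%, and in fibroblast-like cells, at 2.46% and 6.01%.

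Cdh5 (ENSMUSG00000031871, chromosome 8, 104101625 to 104144511, plus strand, GRCm38) encodes VE-cadherin, the adhesion receptor of endothelial adherens junctions. In EC-like cells it stood at 366 CPM in WT (2831 UMIs, interval 353 to 380) and 530 CPM in EC-iCD45KO (5414 UMIs, 516 to 545). The EC-iCD45KO library was 1.45-fold higher, a log2 ratio of 0.53 (0.47 to 0.60), which is short of the 1.5-fold used as the call. No member passed 1.5-fold in EC-like cells, where 4.56% of the 10956 genes were higher and 7.07% lower by that rule. Cdh5 was nearest to it, and passed it in 4 of 13 alternative treatments of the data, whose log2 ratios ran from 0.34 to 0.66.

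The same direction appeared in every endothelial population. Arterial EC-like cells held Cdh5 at 282 and 447 CPM, a log2 ratio of 0.66 (0.52 to 0.81), and capillary EC-like cells at 573 and 784 CPM, a ratio of 0.45 (0.35 to 0.55). Venous EC-like cells held it at 319 and 537 CPM, 0.75 (0.62 to 0.89), and lymphatic EC-like cells at 145 and 216 CPM, 0.57 (0.13 to 1.03). In cells thinned to equal depth, Cdh5 was detected in a share of cells 7.36 percentage points higher in EC-iCD45KO (4.84 to 9.86), and this difference was 2.39 points without thinning and 12.3 points without doublet removal. Of the 11 named non-endothelial classes, 7 were higher in EC-iCD45KO and 4 lower. The log2 ratio of Cdh5 in SMC-like cells was 0.86 (0.53 to 1.19). Fibroblast-like cells gave 0.84 (0.59 to 1.09) and macrophage-like cells held 3.68 CPM in WT and 7.37 CPM in EC-iCD45KO (log2 interval 0.57 to 1.46). Cdh5 was also higher in the EC-iCD45KO library in erythroid-like (36.6 and 58.8 CPM), neutrophil-like (14.9 and 20.0 CPM), plasma-like (12.4 and 21.8 CPM) and B-like cells (3.81 and 8.85 CPM), with intervals of the ratios that include 0. Cdh5 was lower in Schwann-like (40.2 and 31.8 CPM), chondrocyte-like (12.6 and 4.86 CPM), dendritic-like (10.7 and 8.04 CPM) and T/NK-like cells (4.23 and 3.04 CPM), where the intervals of the ratios include 0. It was also lower in the unnamed cluster with close pericyte and SMC scores, at 93.2 and 44.6 CPM (61 and 38 UMIs). The 17 endothelial markers summed to 542 CPM in WT and 750 in EC-iCD45KO fibroblast-like cells, and to 438 and 472 CPM in SMC-like cells. In EC-like cells 15 of those 17 markers were also higher in EC-iCD45KO, with a median log2 ratio of 0.27, from -0.34 for Vwf to 0.81 for Sox18. Gm29682, a gene on the opposite strand within Cdh5, gave only 36 and 91 UMIs in EC-like cells.

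**Figure D2:**
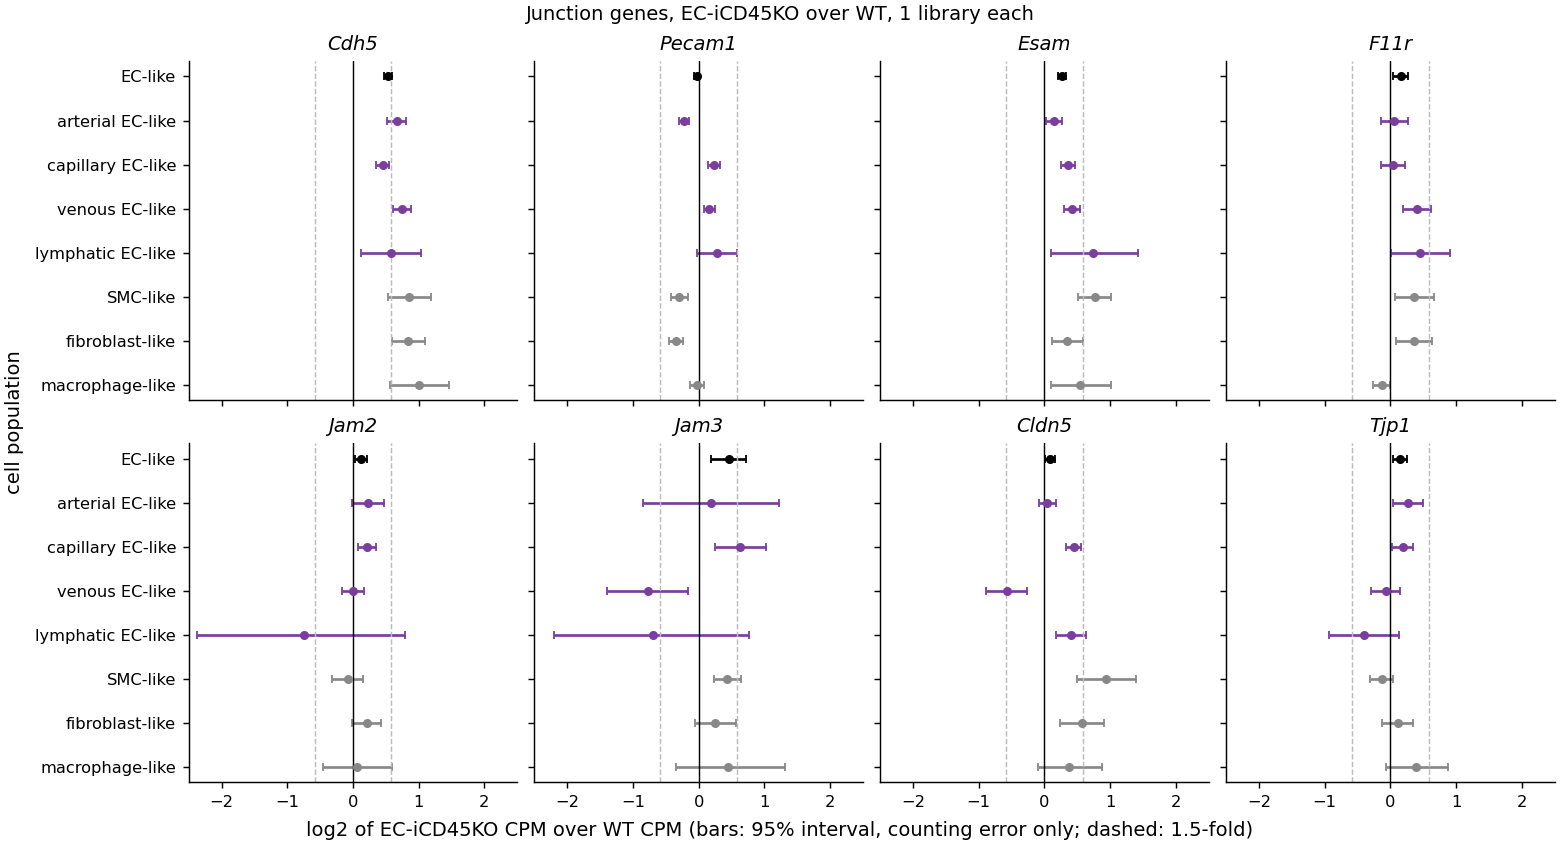
Log2 of the CPM in the EC-iCD45KO library over that in the WT library (horizontal axis) for 8 junction genes in EC-like cells (black), 4 endothelial populations (purple) and 3 other classes (grey), with 95% intervals for counting error only. Cdh5 lies right of 0 in all 8 populations, Cldn5 lies left of 0 only in venous EC-like cells, and dashed lines mark 1.5-fold.

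Pecam1 (ENSMUSG00000020717, chromosome 11, 106654217 to 106750628, minus strand) encodes CD31, a homophilic adhesion protein at the lateral border. EC-like cells held 955 CPM in WT (7383 UMIs) and 933 CPM in EC-iCD45KO (9527 UMIs), a log2 ratio of -0.03 (-0.08 to 0.01). The pooled value joined unlike subtypes. Pecam1 was highest in arterial EC-like cells, where WT exceeded EC-iCD45KO (1424 and 1221 CPM, log2 ratio -0.22, -0.29 to -0.15), while capillary cells (796 and 934 CPM, 0.23, 0.14 to 0.32) and venous cells (881 and 984 CPM, 0.16, 0.07 to 0.25) leaned the other way. Without doublet removal the cells were clustered anew, and the arterial population, then 435 WT and 333 EC-iCD45KO cells, held 809 and 953 CPM, a ratio of 0.24. In that setting venous cells held more Pecam1, 906 and 1068 CPM, so neither the arterial direction nor the arterial rank was kept. Lymphatic EC-like cells held the least, 332 and 403 CPM.

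Esam (ENSMUSG00000001946, chromosome 9, 37528078 to 37538319, plus strand) encodes an endothelial adhesion molecule that associates with tight junctions. The WT level was 417 CPM (402 to 431) and the EC-iCD45KO level 503 CPM (489 to 517), a log2 ratio of 0.27 (0.21 to 0.33). Over alternative treatments this ratio ran from 0.04, with each cell weighted equally, to 0.43, without doublet removal. Blood endothelial subtypes held it at 405 to 530 CPM in WT and 457 to 679 CPM in EC-iCD45KO. Lymphatic EC-like cells stood apart, at 67.3 and 113 CPM, which was 0.13 of the capillary level in WT and 0.17 in EC-iCD45KO.

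The JAM family divided by subtype. F11r (ENSMUSG00000038235, chromosome 1, 171437535 to 171464603, plus strand) was the even one: arterial cells held 161 and 168 CPM, capillary cells 180 and 185, venous cells 142 and 188, and lymphatic cells 152 and 209 CPM. No pair of these populations differed in F11r by 1.5-fold the same way in both libraries. Its ratio between libraries in EC-like cells was 0.16 on the log2 scale (0.05 to 0.27), and -0.01 once cells were thinned to 1000 UMIs.

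Jam2 (ENSMUSG00000053062, chromosome 16, 84774123 to 84825928, plus strand), whose product JAM-B pairs with JAM-C across cell borders, was graded. Capillary cells held 340 CPM in WT and 394 in EC-iCD45KO, venous cells 262 and 263, arterial cells 107 and 125, and lymphatic cells 21.7 and 12.9 CPM. The capillary level was 3.17-fold the arterial level in WT and 3.14-fold in EC-iCD45KO. Each step of this order exceeded the counting intervals of both libraries. Between libraries the EC-like values were close, 220 and 240 CPM, a log2 ratio of 0.13 (0.04 to 0.22), and its detection in thinned cells was 2.39 points more frequent in EC-iCD45KO (0.254 to 4.52) and differed by -0.656 points when cells were not thinned.

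Jam3 (ENSMUSG00000031990, chromosome 9, 27097384 to 27155421, minus strand) encodes JAM-C. It was sparse in arterial cells, with 7.09 CPM in WT (16 UMIs) and 8.03 CPM in EC-iCD45KO (20 UMIs), against 36.1 and 55.9 CPM in capillary cells. The capillary level was 5.10-fold the arterial level in WT and 6.96-fold in EC-iCD45KO. The EC-like ratio between libraries was 0.45 on the log2 scale (0.19 to 0.72, 188 and 340 UMIs). It was 0.78 in cells thinned to 1000 UMIs and 0.65 without doublet removal, both past 1.5-fold, but 0.20 with equal weights for the subtypes and 0.25 in the 3 named subtypes alone. Capillary cells were higher in EC-iCD45KO (0.63, 0.24 to 1.03) and venous cells lower (25.6 and 15.0 CPM, -0.77, -1.39 to -0.16), although the venous value rests on 50 and 44 UMIs and was 0.15 without doublet removal. Gm48796, which overlaps Jam3 on the other strand, gave 3 and 2 UMIs.

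**Figure D3:**
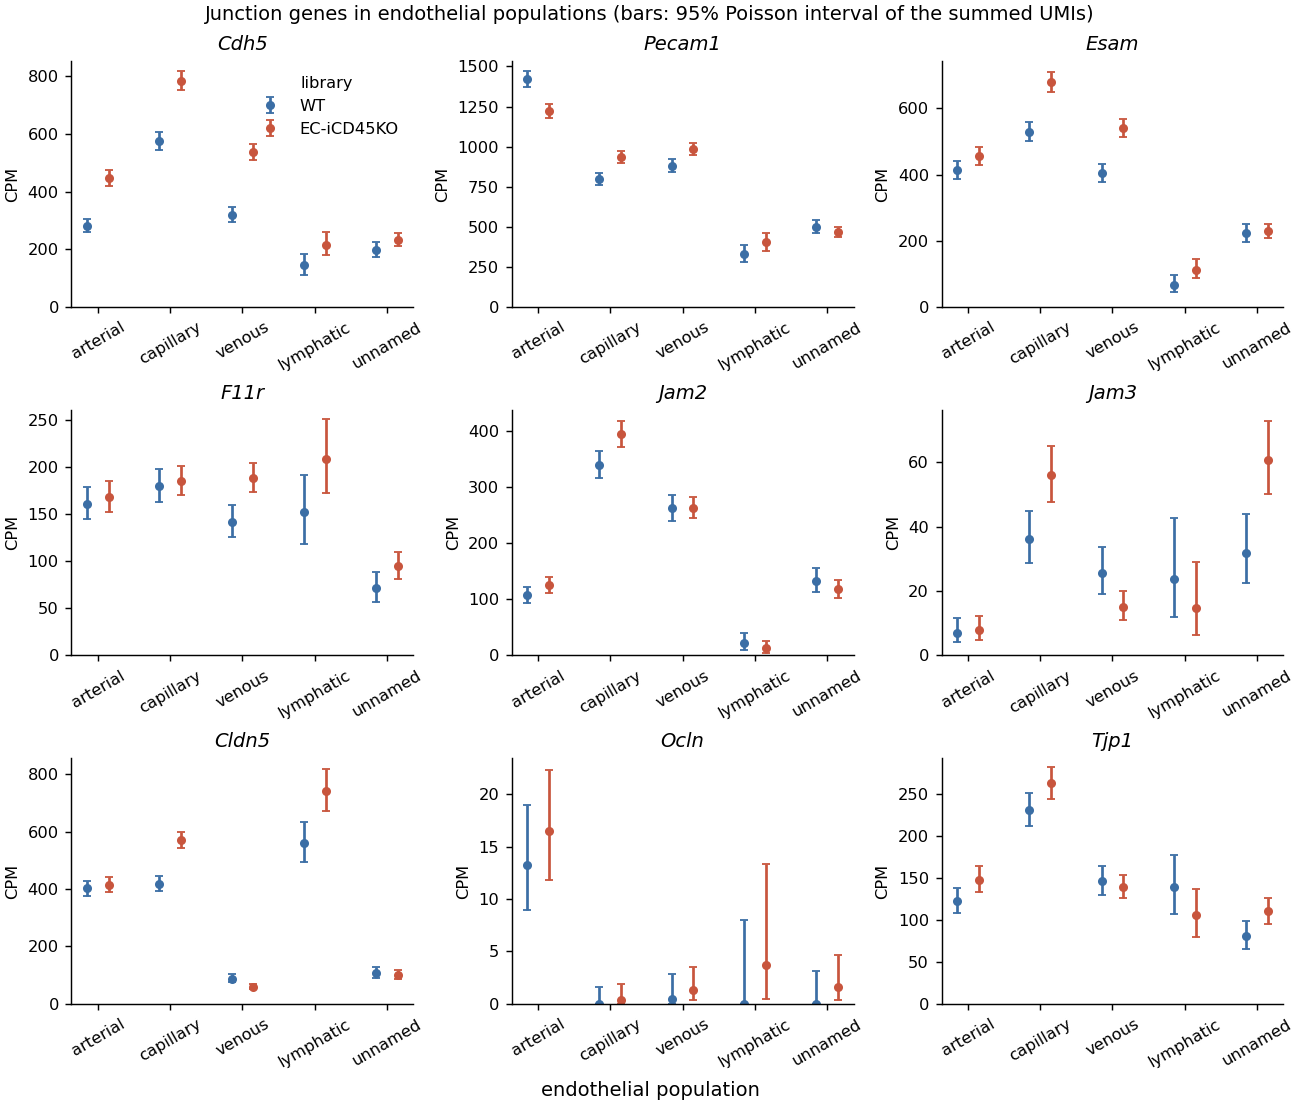
CPM of 9 junction genes (vertical axes, from 0) in 5 endothelial populations of the WT (blue) and EC-iCD45KO (red) libraries, with 95% Poisson intervals. Ocln is read mainly in the arterial cells of this clustering, which held 3 and 13 UMIs without doublet removal against the 30 and 41 plotted, Cldn5 is low in venous and high in lymphatic cells, Jam2 and Jam3 are low in arterial cells, and F11r is nearly level across the 4 named populations.

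The tight junction strand genes Cldn5 and Ocln were unevenly read among endothelial subtypes, and for that reason 250 bases before their starts are shown, from RefSeq on GRCm38. Of the 10 genes, 5 had an entry in the promoter table (F11r, Cgn, Tjp1, Ocln and Cldn5). Capitals mark CACCC on either strand, the box bound by Krüppel-like factors. Each run is read 5′ to 3′ on the gene's own strand, Cldn5 from chr16:18776597-18776846 (plus) and Ocln from chr13:100552719-100552968 (minus). The table also holds a second Ocln start, whose window (chr13:100552499-100552748) is not shown. The printed window is the one that meets the annotated start of the gene.
Cldn5: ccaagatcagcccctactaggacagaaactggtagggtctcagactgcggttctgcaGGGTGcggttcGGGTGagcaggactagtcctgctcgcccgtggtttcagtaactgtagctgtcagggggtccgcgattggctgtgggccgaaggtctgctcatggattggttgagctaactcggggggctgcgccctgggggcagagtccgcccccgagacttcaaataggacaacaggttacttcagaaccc
Ocln: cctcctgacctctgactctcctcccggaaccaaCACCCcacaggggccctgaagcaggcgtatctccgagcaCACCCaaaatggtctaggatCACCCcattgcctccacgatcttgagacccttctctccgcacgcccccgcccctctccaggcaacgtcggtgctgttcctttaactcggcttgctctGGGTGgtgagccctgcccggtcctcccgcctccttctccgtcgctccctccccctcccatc
CACCC occurred 2 times in the Cldn5 window and 4 times in the printed Ocln window, against 0 times in the window of the second Ocln start, and 52.0% of the 32851 windows of this length hold it at least once. GGAA, the core of ETS factor sites, occurred 0 times before Cldn5 and 2 times in the printed Ocln window on either strand, against 1 time in the other, and 93.4% of windows hold it. The windows had 59.6% and 64.0% G and C.

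Cldn5 (ENSMUSG00000041378, chromosome 16, 18776847 to 18778262, plus strand) encodes claudin-5, the main claudin of endothelial tight junctions. Lymphatic EC-like cells held 560 CPM in WT (494 to 633) and 742 in EC-iCD45KO (671 to 818), capillary cells 419 and 570, arterial cells 403 and 414, and venous cells only 88.5 (75.8 to 103) and 59.5 CPM (51.0 to 69.0). The venous level was 0.22 of the arterial level in WT and 0.14 in EC-iCD45KO. Arterial and capillary cells did not differ beyond their intervals in WT, whereas in EC-iCD45KO capillary cells were 1.38-fold higher (log2 ratio 0.46, 0.35 to 0.57). Among thinned cells, 7.57% of WT and 3.80% of EC-iCD45KO venous cells had a Cldn5 UMI, against 28.1% and 28.3% of arterial cells.

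Between libraries Cldn5 was nearly level in EC-like cells as a whole, 283 and 300 CPM, a log2 ratio of 0.08 (0.00 to 0.16). The subtypes did not share a direction. Capillary cells were higher in EC-iCD45KO by 0.44 (0.33 to 0.56) and lymphatic cells by 0.41 (0.18 to 0.64), arterial cells differed by 0.04 (-0.09 to 0.17), and venous cells were lower, at -0.57 (-0.88 to -0.26). The venous ratio was -0.66 with a looser filter and -0.42 without doublet removal. With a stricter filter it was -0.26, with an interval that includes 0 (-0.58 to 0.07). Venous cells of the 2 libraries also differed in lymphatic markers, in both directions. Ccl21a stood at 1336 CPM in WT and 7.14 CPM in EC-iCD45KO venous cells, while Prox1 stood at 16.4 and 3.74 CPM against 369 and 520 CPM in lymphatic EC-like cells. Mmrn1 (4.60 and 1.02 CPM) and Reln (8.18 and 4.76 CPM) were also lower in EC-iCD45KO, Reln with an interval that includes 0. Lyve1 (1.02 and 6.12 CPM) and Pdpn (7.16 and 17.3 CPM) were higher in EC-iCD45KO, and Flt4 was close to level (13.3 and 14.6 CPM). The part of lymphatic RNA in the venous Cldn5 value was not tested.

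Ocln (ENSMUSG00000021638, chromosome 13, 100496507 to 100552718, minus strand) encodes occludin, a tetraspan strand protein. Arterial cells held 30 of the 31 EC-like UMIs in WT (96.8%, exact Clopper-Pearson interval 83.3 to 99.9) and 41 of 49 in EC-iCD45KO (83.7%, 70.3 to 92.7), although they made up 27.8% and 19.3% of EC-like cells. The arterial level was thus 13.3 CPM (8.96 to 19.0) in the WT library and 16.5 CPM (11.8 to 22.3) in the other. Capillary cells held 0 UMIs in WT, which allows up to 1.29 CPM, and 1 UMI in EC-iCD45KO, and venous cells held 1 and 4. This pattern depended on the processing. Without doublet removal, and with the cells clustered anew, arterial cells held 3 Ocln UMIs in WT (2.55 CPM) and 13 in EC-iCD45KO (9.23 CPM), capillary cells 0 and 0, and venous cells 0 and 3. With a looser filter arterial cells held 30 and 31 UMIs and capillary cells 0 and 0. With a stricter filter arterial cells held 26 and 26, and capillary cells 0 in WT and 10 in EC-iCD45KO. A UMI was seen in 3.24% of WT and 4.45% of EC-iCD45KO arterial cells before thinning. The libraries did not differ beyond counting error in arterial cells (log2 ratio 0.31, -0.41 to 1.04).

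Among the plaque proteins, Tjp1 (ENSMUSG00000030516, chromosome 7, 65296165 to 65527781, minus strand) was read in all endothelial populations. Capillary cells held the most, 230 CPM in WT and 262 in EC-iCD45KO, against 123 and 148 in arterial, 146 and 139 in venous, and 139 and 105 CPM in lymphatic cells. Capillary cells exceeded each of the other populations by over 1.5-fold in both libraries. The libraries differed little in EC-like cells, 154 and 171 CPM, a log2 ratio of 0.15 (0.04 to 0.26). Cgn (ENSMUSG00000068876, chromosome 3, 94760069 to 94786492, minus strand), a plaque protein best known from epithelia, had no UMI in any endothelial population, including lymphatic EC-like cells, where the smaller number of UMIs allows up to 6.51 and 5.55 CPM. Its paralogue Cgnl1 was read at 76.6 CPM in WT and 77.5 CPM in EC-iCD45KO EC-like cells.

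Counted together, 8 of the 9 members tested differed by 1.5-fold or more, the same way in both libraries, in at least 1 pair of the 4 named endothelial populations, against 40.9% of all genes tested. For capillary over arterial cells the count was 5 of 9 members against 19.3% of genes, for venous over arterial cells 4 of 9 against 12.5%, and for venous over capillary cells 2 of 8 against 16.0%. Lymphatic cells differed from arterial cells in 6 of 9 members (18.7% of genes), from capillary cells in 6 of 8 (22.5%) and from venous cells in 5 of 8 (17.5%). The first 2 of these counts include Jam3, which had 11 and 8 lymphatic UMIs. Its log2 interval includes 0 over arterial cells in EC-iCD45KO (-0.51 to 2.13) and over capillary cells in WT (-1.65 to 0.32). Ocln met the minimum of 5 CPM only through its arterial level. It could therefore enter only the pairs with arterial cells, and it is counted in each of them. The clustering used none of the 10 genes. Cells of the EC-like class that fit no subtype, 924 in WT and 1668 in EC-iCD45KO, were shallow, with medians of 1001.5 and 875 UMIs, and held Cdh5 at 198 and 233 CPM and Pecam1 at 498 and 466 CPM. They came from 2 subclusters. The larger, with 903 and 1615 cells, had the macrophage genes Folr2 and Clec10a among its leading genes, and the smaller, with 21 and 53 cells, was led by Igfbp5 and Esm1. Over both, macrophage markers summed to 7096 CPM in WT and 12363 CPM in EC-iCD45KO. The part of that RNA in the lower junction levels of these cells was not tested.

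Over the 8 members at a mean of at least 5 CPM in EC-like cells, the median log2 ratio of EC-iCD45KO over WT was 0.15 and that of all genes -0.01. The ratio was above 0 for 7 of the 8, and the exception was Pecam1. As a mean of single-cell CPM, Cldn5 (-0.12) and Jam2 (-0.04) were also below 0, and in cells thinned to 1000 UMIs Cldn5 (-0.08) and F11r (-0.01) were. The median over the same 8 members was larger in SMC-like and fibroblast-like cells, 0.40 in SMC-like cells, where 5 were above 0, and 0.30 in fibroblast-like cells, where 7 were, beside medians over all genes of -0.06 and -0.04. Of the other non-endothelial classes with 7 to 9 members at the minimum, neutrophil-like (0.27) and erythroid-like cells (0.69) had medians above 0. Chondrocyte-like (-1.09), plasma-like (-0.96) and Schwann-like cells (-0.59) had medians below 0. Within subtypes a few members passed 1.5-fold. In arterial cells 1 of 9 did, Cdh5, where 20.2% of genes passed either way. Arterial Cdh5 was under 1.5-fold with a stricter filter (log2 ratio 0.40), with a looser filter (0.47) and without doublet removal (0.56). In capillary cells 1 of 8 did, Jam3, against 14.7% of genes, and in venous cells 2 of 8, Cdh5 upward and Jam3 downward, against 22.6%. Capillary Jam3 was under the fold with a stricter (0.50) and a looser filter (0.56), and past it without doublet removal (0.62). Venous Jam3 was under it with a stricter filter (-0.48) and was 0.15 without doublet removal, whereas venous Cdh5 passed in each of these settings. In lymphatic cells 3 of 8 did, Esam upward and Jam2 and Jam3 downward, against 41.7% of genes. Lymphatic Esam was under the fold with a looser filter (0.56). The lymphatic Jam2 and Jam3 ratios rest on 10 and 7 UMIs and on 11 and 8 UMIs, their intervals include 0 (-2.38 to 0.80 and -2.21 to 0.76), and the Jam2 ratio was 0.51 without doublet removal. The count of members in each population was thus close to or below what the share of all genes would give.

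Junction transcripts were seen together in single cells. After thinning to 1000 UMIs, a WT EC-like cell held a UMI of 1.74 of the 10 genes on average and an EC-iCD45KO cell 1.84, and 52.7% (50.7 to 54.7) and 54.9% (53.0 to 56.8) of cells held 2 or more. In B-like cells 0.539% and 0.323% did, and in SMC-like cells 4.15% and 5.78%. Capillary cells held the most, 2.36 and 2.67 genes on average, with 70.5% (66.9 to 73.9) and 79.7% (76.7 to 82.6) of cells at 2 or more. Lymphatic EC-like cells held 1.19 and 1.23. Esam was found in 39.3% of WT EC-like cells with a Cdh5 UMI and in 27.1% of those without, and in 39.8% and 28.2% in EC-iCD45KO. The corresponding values for Pecam1 were 55.9% and 51.3% in WT, and 56.4% and 47.9% in EC-iCD45KO. These shares pool the endothelial subtypes, and EC-like cells that fit no subtype held only 1.03 and 1.04 genes on average. The part of this mixture in the shares was not tested.

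**Figure D4:**
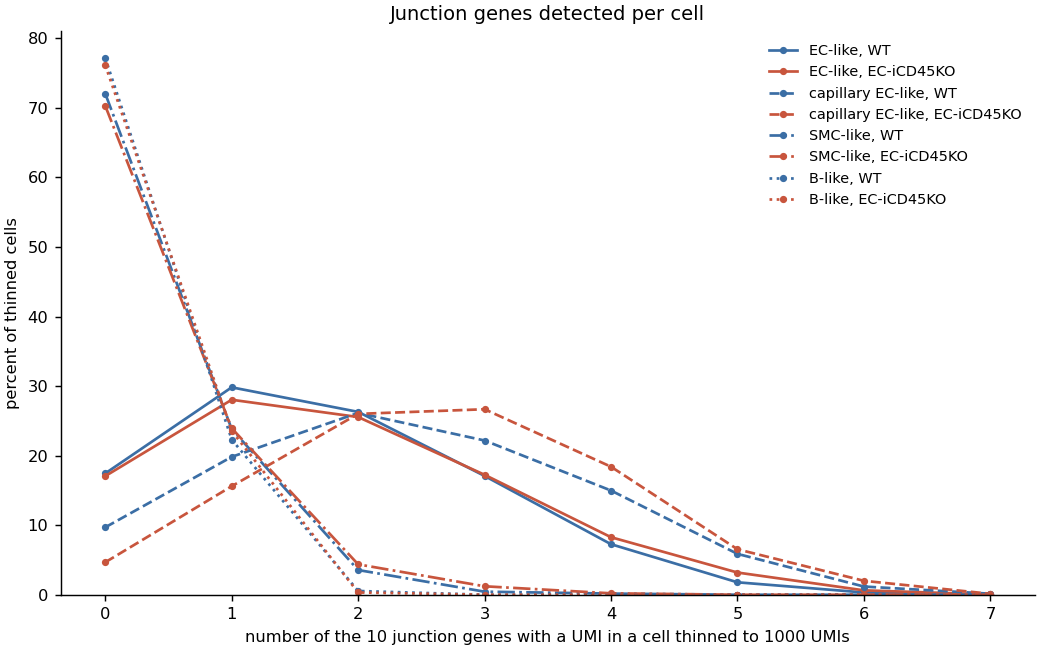
Percent of cells (vertical axis) by the number of the 10 junction genes with a UMI after thinning to 1000 UMIs (horizontal axis), for 4 populations in the WT (blue) and EC-iCD45KO (red) libraries. B-like and SMC-like cells fall off after 1 gene, EC-like cells spread to 4 or more, and the 2 capillary curves are shifted to the right, the EC-iCD45KO curve further.

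Genes with the most similar profile were sought over 30 class-by-library profiles of log2(CPM + 5), among 10976 genes. The profiles share the 2 libraries and their depth, so Pearson's r is a description. Cdh5 was closest to Tie1 (r = 0.977), which encodes an endothelial receptor tyrosine kinase, then Esam (0.972) and Tek (0.972), the angiopoietin receptor. Tie1 and Tek are on the marker list that named the EC-like class, so their likeness to an endothelial gene was partly built in. Esam was closest to Ptprb (0.986), the phosphatase VE-PTP that associates with VE-cadherin. Pecam1 was closest to Icam2 (0.963), another adhesion protein of endothelium and leukocytes, and Cldn5 to Tal1 (0.954), a transcription factor of blood and endothelium. Tjp1 was closest to Cav1 (0.957), the caveolar coat protein, F11r to Afdn (0.930), the junction adaptor afadin, Jam2 to Myo10 (0.927) and Jam3 to Sh3d19 (0.912). Among the members themselves Cdh5 and Esam were the most alike pair, and Pecam1 and Jam3 the least (0.145). Ocln and Cgn were under 20 CPM in every profile and were not matched.

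Other junction genes were taken as 9 lists with 64 genes, of which 63 had a row and 49 reached a mean of 5 CPM in EC-like cells. Their median log2 ratio between libraries was 0.14, and 2 were higher and 3 lower by 1.5-fold, against the 4.56% and 7.07% of all genes given above. The catenins and their partners, which tie cadherins to actin, gave 0 of 7 past the fold, with a median of 0.19: Ctnnb1, beta-catenin, stood at 243 and 276 CPM and Ctnnd1, p120-catenin, at 110 and 127 CPM. Connexins of gap junctions gave 0 of 4 with a median of 0.29, among them Gja1 at 61.6 and 87.3 CPM and Gja5 at 72.4 and 66.8 CPM, and the other cadherins 0 of 3 with a median of 0.42, among them Cdh13 at 574 and 768 CPM. Of the claudins other than Cldn5 only 2 of 7 reached 5 CPM and 0 passed the fold, and of these Cldn15 stood at 25.0 and 33.2 CPM. Of 3 tricellular proteins 1 reached 5 CPM, Lsr, at 17.6 and 13.4 CPM. Nectins gave 1 of 4 higher, plaque proteins 1 of 9 lower, the immunoglobulin family 1 of 6 higher and 1 lower, and junction regulators 1 of 13 lower.

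Of these, Mcam, an adhesion molecule of vessels and their mural cells also called CD146, was higher, at 54.8 CPM in WT and 101 CPM in EC-iCD45KO EC-like cells, a log2 ratio of 0.88 (0.71 to 1.05). It was also higher in SMC-like cells, at 50.6 and 105 CPM. Ccm2, a scaffold of the cerebral cavernous malformation complex that stabilises endothelial junctions, was lower, at 70.8 and 44.8 CPM, a log2 ratio of -0.66 (-0.84 to -0.48), and was lower in fibroblast-like cells as well, at 67.0 and 43.3 CPM. The other 3 lay under the 20 CPM set for naming a gene and are named after their values were seen. Patj, a polarity scaffold of tight junctions, stood at 14.9 and 3.13 CPM in EC-like, 17.0 and 4.10 CPM in fibroblast-like and 10.9 and 3.27 CPM in SMC-like cells. Pvr stood at 15.4 and 24.0 CPM, and Jaml, a leukocyte adhesion protein, at 9.57 and 5.19 CPM in EC-like cells against 158 and 110 CPM in dendritic-like cells.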

How the data were processed

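Per the submitters' processing notes, the authors' reads were processed with Cell Ranger 7.1.0 on mm10, and the deposited files hold raw UMI counts per gene and cell barcode. Strand setting, annotation release and any doublet removal before deposit are not given in the sources used here. The lowest barcode held 500 UMIs. Cells were kept from 300 detected genes upward and up to 10% mitochondrial UMIs (39503 WT and 28960 EC-iCD45KO). Scrublet's own threshold marked 3 and 0 cells and so had not worked. The 10% of cells with the highest doublet scores in each library were removed instead, which left 35553 and 26064 cells. Cells were clustered in scanpy 1.11.5 (2000 variable genes, 30 components, 20 neighbours, leidenalg 0.10.2 at resolution 1) without the 10 members and named from marker lists. EC-like cells were clustered again at resolution 0.5 on genes enriched in them, each library centred and scaled on its own. These were 306 genes before the members, the other listed junction genes and Ptprc were taken out. UMIs were summed per class and library and given as CPM. Intervals are exact Poisson for levels, Clopper-Pearson for shares and conditional binomial for ratios. A difference counts at 1.5-fold and a mean of at least 5 CPM. For shares, each cell was thinned to 1000 UMIs, which left out 860 WT and 1493 EC-iCD45KO EC-like cells.

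The members and gene lists were chosen with earlier results of these data known. The naming thresholds, the endothelial subclustering and the 10% doublet rule were set after the data were seen. All members are named, and other junction genes are named at 20 CPM and 1.5-fold, with examples from each list. Gene positions are from GENCODE on GRCm38, where 32158 of 32285 identifiers matched. An alternative scaling used the TMM method of edgeR 4.0.16 (R 4.3.3). Alternatives were the cell filter, doublet removal, clustering resolution, scaling, weighting, thinning and minimum level.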

Additional observations from a re-analysis of the deposited data

Results flagged for a closer look

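Some members differed between the libraries in opposite directions in different endothelial subtypes, with counting intervals that exclude 0 on each side. None of these differences between subtypes was tested, since each group had 1 library. For Pecam1 the log2 ratio of EC-iCD45KO over WT was 0.23 in capillary and -0.22 in arterial EC-like cells, and it was 0.16 in venous against -0.22 in arterial cells. Without doublet removal, which also changed the clusters, the arterial ratio was 0.24.

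For Cldn5 the ratio was 0.44 in capillary and -0.57 in venous EC-like cells, and 0.41 in lymphatic against -0.57 in venous cells. With a stricter cell filter the venous Cldn5 ratio was -0.26, with an interval that includes 0. For Jam3 it was 0.63 in capillary and -0.77 in venous EC-like cells, and the venous ratio was 0.15 without doublet removal.

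A cluster of 27 cells, all from the EC-iCD45KO library, was not named and entered no comparison. It was too small, and its leading genes held Fscn1 of the dendritic list but no marker of the endothelial list. They also included Piezo2, Prnd and Aplnr. The cluster held Cdh5 at 659 CPM, Pecam1 at 858 CPM and Esam at 489 CPM.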

How the results depend on the processing

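No paired analysis was possible because there was a single library of either group. No member passed 1.5-fold between the libraries in EC-like cells. The count was 1 with a stricter cell filter (Cdh5, log2 ratio 0.59), 1 with equal weights for the endothelial subtypes (Cdh5, 0.59), 1 with cells thinned to 1000 UMIs (Jam3, 0.78), 2 without doublet removal (Cdh5, 0.66, and Jam3, 0.65) and 1 with only the 3 named subtypes (Cdh5, 0.59), the last chosen after seeing the data. The median over members was 0.15, with 0.29 without doublet removal and 0.044 as a mean of single-cell CPM, and it stayed above 0 in 13 of 13 alternatives. Members at least 4-fold above every named non-endothelial class numbered 3, and 6 at 2-fold, where 2.79% of all genes passed. Members that differed between endothelial populations numbered 7 or 8. Without thinning, the difference in the share of cells with a Jam2 UMI was -0.656 points against 2.39. For Cdh5 it ran from 2.39 without thinning to 12.3 without doublet removal, against 7.36. As log2 ratios in EC-like cells, Pecam1 ran from -0.15 to 0.10, Jam3 from 0.20 to 0.78 and Cldn5 from -0.12 to 0.25. Jam2 ran from -0.04 to 0.28 and F11r from -0.01 to 0.26. The directions of Pecam1, Cldn5, Jam2 and F11r in EC-like cells thus depend on the setting. The log2 ratios of Cdh5, Jam3, Esam, Tjp1 and Ocln stayed above 0 in all 13. The cause of these shifts was not tested. Ocln, with 31 and 49 UMIs, and Cgn, with 0, are limited by depth.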

Other observations

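The unnamed cluster of 223 WT and 212 EC-iCD45KO cells that scored best on the pericyte list held further junction genes. Jam3 stood at 50.4 CPM in WT and 68.1 CPM in EC-iCD45KO, above the EC-like levels of 24.3 and 33.3 CPM. Cdh5 stood at 93.2 and 44.6 CPM, below the EC-like levels of 366 and 530 CPM.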
